A study of Komagataella phaffii with 32 samples.

Results

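The genes described here are 10 phosphate genes of the yeast Komagataella phaffii, also called Pichia pastoris, out of 5040 genes with expression values. They were matched by the gene name column of the authors' deposited table, and their values were taken by gene identifier from the deposited expression table in all 12 groups. They are the regulators PHO81, PHO80, PHO85 and PHO2, the transporter maturation gene PHO86, the phosphatases PHO5 and PHO8, the phosphodiesterase GDE1, and VTC2 and VTC4 of polyphosphate synthesis. The gene names come from Saccharomyces cerevisiae, and the roles given below are known from that yeast.

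In S. cerevisiae, the cyclin Pho80 and the kinase Pho85 phosphorylate the transcription factor Pho4 when phosphate is plentiful and so keep it out of the nucleus. When phosphate is scarce, the inhibitor Pho81 blocks the kinase, and Pho4 acts with the homeobox factor Pho2 on genes for phosphatases, phosphate transporters and polyphosphate storage. An alkaline medium lowers the proton gradient on which the high-affinity transporter Pho84 depends, and genes of this pathway are known to respond to alkaline pH in that yeast.

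RNA was sequenced from whole cells of 3 isogenic strains: the wild type X-33 (WT), PJA-001 with the genotype crz1_559 (crz1) and PJA-007 with the genotype rim101_117 (rim101). The sample labels name X-33 as the wild type, while the design text of the series names GS115, and the labels were followed here. CRZ1 and RIM101 encode transcription factors, and each mutant is represented by 1 named strain. Cells were grown at 28 °C in yeast extract and peptone with 20 g/L glycerol, from an OD600 of 0.2 to about 0.6, then spun down and resuspended in fresh medium with 50 mM TAPS buffer. Time 0 (T0) was taken directly after resuspension at pH 5.5, and T15, T30 and T60 were taken 15, 30 and 60 min after resuspension at pH 8.0. WT and crz1 had 3 libraries at each time and rim101 had 2, which gives 32 libraries. No group at pH 5.5 was taken later than T0, so pH and time after resuspension cannot be told apart. Values are RPKM as computed by the authors, the reads of a gene divided by its length in kilobases and by the mapped reads of the library. RPKM is a share of each library's reads, so a change of 1 gene and an opposite change in all other mRNA of the cell cannot be told apart.

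The depth, read from the spacing of low RPKM values, was 4.95 to 16.5 M reads in 30 libraries, with a median of 7.70 M. It could not be read in replicate 2 of WT T15 and replicate 1 of rim101 T30. In 9 libraries the median tested gene was at 46.6 to 56.6 RPKM, against 21.01 to 35.4 RPKM in the other 23. These higher-median libraries were replicate 1 of WT T30 and of every later crz1 time, the first and second of WT T60, replicate 2 of rim101 T15 and the pair of rim101 T30. In the 6 groups that held both kinds of library, the higher-median ones lay above the others in 6 of 6 groups for PHO81, PHO80, PHO85, PHO86, VTC2 and VTC4, in 5 for PHO8, 3 for PHO5 and 0 for PHO2. For GDE1 they did so in the 4 such groups where it was detected, and the other 2 were listed at 0 throughout. The kinds are set by the median of all tested genes, so many genes lie higher in them by definition. The share of all genes that did so was not computed. RIM101 mRNA was 24.3 to 42.1 RPKM in the rim101 libraries of all times, while in WT it was 20.5 to 45.7 at T0 and 103 to 151 at pH 8.0. CRZ1 mRNA was 21.6 to 54.6 RPKM in the crz1 libraries against 16.6 to 34.3 in WT, a level that does not check the genotype, since a mutated gene can still be transcribed.

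PHO5, VTC2 and VTC4 rose in all 3 strains at each time at pH 8.0, and so did PHO8, by less and with most of its calls lost after rescaling of the libraries. A gene was called at a Benjamini-Hochberg adjusted p under 0.05 in a limma fit of log2(RPKM + 1) over the 4226 genes with a mean of at least 1 RPKM. All 10 passed this filter, but GDE1 did so through its T15 and T30 libraries alone, which makes its change part of the filter, so the counts and medians that follow are over the other 9. In WT, 5, 6 and 6 of the 9 rose at T15, T30 and T60, while 13.4%, 24.1% and 26.9% of all tested genes rose. In crz1 the same counts were 5, 6 and 6, against 14.6%, 16.8% and 12.4% of all genes. In rim101, 6, 8 and 4 rose, against 5.47%, 23.5% and 2.72%. The rim101 count at T15 was 2 without T15 replicate 2, 3 without T0 replicate 1 or without the higher-median libraries, and 0 in a fit of the compared groups alone. At T60 it was 2 without T0 replicate 1 or without either T60 library, and 1 in the fit of the compared groups. That fit gave 2 for WT at T15, 2 for WT at T60 and 3 for crz1 at T15. None of the 9 fell in WT or crz1, where 5.18%, 4.07% and 4.61% of all genes fell in WT and 8.33%, 5.28% and 5.4% in crz1. In rim101 the share of all genes that fell was 2.7%, 4.64% and 1.14%, and PHO2 fell at T30 and T60.

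By the median the changes were largest at T30 in rim101, while in WT and crz1 the T30 and T60 medians were close. The median log2 change of the 9 genes against T0 was 0.84, 1.49 and 1.50 in WT at T15, T30 and T60, and the median of all tested genes was 0.17, 0.62 and 0.65. For crz1 the median of the 9 was 0.97, 1.34 and 1.41, beside 0.24, 0.43 and 0.29 over all genes. In rim101 it was 1.84, 2.60 and 0.87, beside 0.41, 0.85 and 0.13. Where the libraries were rescaled by median ratios, the median of all genes lay at 0.14 or below in each of these 9 comparisons, so part of every log2 change below moves with the scaling. The comparisons of 1 strain share its T0 libraries and are not independent of each other.

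**Figure D1:**
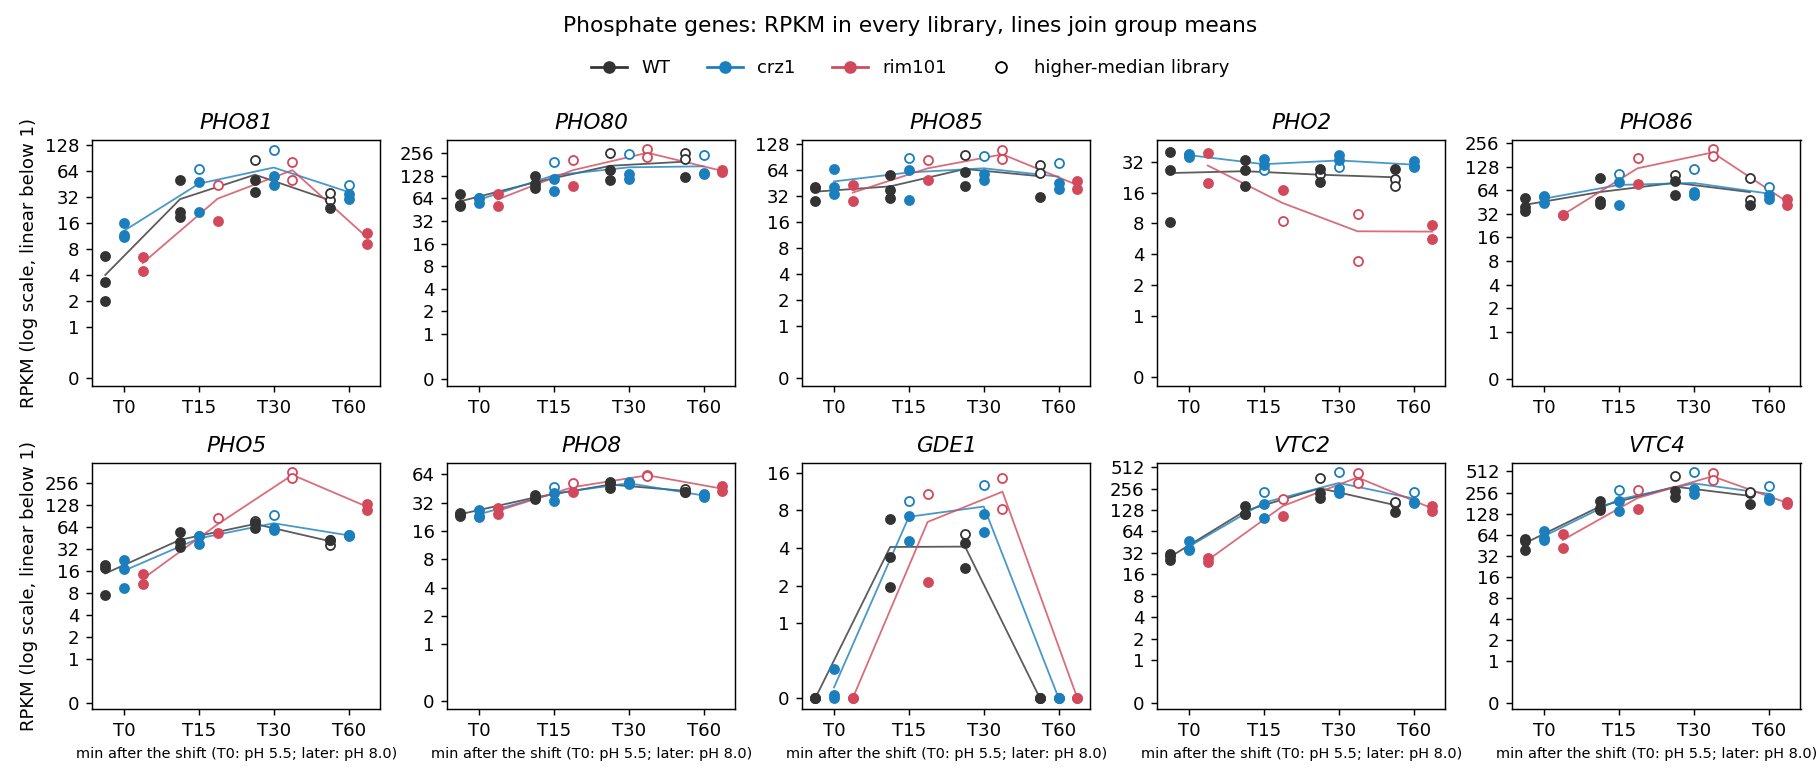
RPKM of each of the 10 genes (vertical axes, log2 scale above 1 RPKM and linear below) by time after resuspension in min (horizontal axes). Points are single libraries of WT, crz1 and rim101, open where the library is of the higher-median kind, and lines join the group means. PHO5 at T30 reached 365 and 300.4 RPKM in rim101 and at most 95.2 RPKM in the other strains, and PHO2 was below 10 RPKM in the 4 rim101 libraries at T30 and T60.

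PHO81 (PAS_c121_0015, chromosome 1, 2655371 to 2658595, minus strand), named after the S. cerevisiae inhibitor of the Pho80-Pho85 kinase, was the lowest of the regulators at T0. In WT it stood at 3.32, 1.96 and 6.64 RPKM at T0, 21.2, 18.9 and 50.7 RPKM at T15, 87.0, 50.7 and 36.9 RPKM at T30 and 29.2, 35.4 and 23.6 RPKM at T60. Every later WT library was above every T0 library. The log2 change was 2.62 at T15 (SE 0.47, limma adjusted p = 0.000303), 3.59 at T30 (SE 0.47, limma adjusted p = 6.10e-06) and 2.70 at T60 (SE 0.47, limma adjusted p = 0.000286). In crz1 the T0 libraries were already at 11.0, 16.1 and 11.7 RPKM, all above the 3 WT libraries, and T30 reached 112, 43.8 and 55.8 RPKM. The crz1 log2 changes of 1.62, 2.26 and 1.43 passed the test, with limma adjusted p = 0.0137, 0.00105 and 0.0363. The T15 call was lost without crz1 T0 replicate 1, T15 replicate 1 or T15 replicate 2 and without the higher-median libraries. At T60 the call was lost without the higher-median libraries or without any 1 of crz1 T0 replicates 1 and 3 and T60 replicates 1, 2 and 3, with adjusted p up to 0.125.

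In rim101, PHO81 went from 4.43 and 6.50 RPKM at T0 to 17.0 and 44.2 at T15 and 81.0 and 50.3 at T30, then was at 9.20 and 12.4 RPKM at T60. The T60 libraries lay above both T0 libraries and below every WT library of T60, which ran from 23.6 to 35.4 RPKM. The log2 change was 2.16 at T15 (SE 0.58, limma adjusted p = 0.0185), 3.35 at T30 (SE 0.58, limma adjusted p = 0.000329) and 0.87 at T60 (SE 0.58, limma adjusted p = 0.633), the last not past the threshold. At T15 the call was lost without rim101 T0 replicate 1 and without T15 replicate 2, a higher-median library.

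The cyclin PHO80 (PAS_chr4_0898, chromosome 4, 1686380 to 1687162, minus strand) was more abundant than its kinase in every WT library and rose in WT at T30 and T60. PHO80 in WT was 52.3, 73.6 and 50.0 RPKM at T0, 100.4, 87.7 and 128 at T15, 259, 152 and 112 at T30 and 255, 216 and 122 at T60. All later libraries were above T0. Its log2 changes were 0.84 at T15 (SE 0.37, limma adjusted p = 0.128), 1.49 at T30 (SE 0.37, limma adjusted p = 0.00455) and 1.69 at T60 (SE 0.37, limma adjusted p = 0.00208). In crz1 it rose by 1.34 at T30 and 1.41 at T60 (limma adjusted p = 0.0104 and 0.00947), and each of these calls was lost without replicate 1 of that time, a higher-median library. In rim101, PHO80 was at 50.5 and 73.7 RPKM at T0, 292 and 227 at T30 and 145 and 152 at T60. It rose at T30 by 2.06 (SE 0.45, limma adjusted p = 0.00301), a call lost without rim101 T0 replicate 1 or T30 replicate 1, and its T60 change of 1.27 had an adjusted p of 0.154. At T15 the change of PHO80 passed in all 3 strains after median-ratio scaling, at 0.68, 0.77 and 0.84 in WT, crz1 and rim101.

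The kinase PHO85 (PAS_chr3_0214, chromosome 3, 425378 to 426386, plus strand) passed the test in 1 of 9 comparisons with T0. In WT it was 40.3, 40.7 and 28.1 RPKM at T0, 38.4, 30.9 and 56.3 at T15, 96.0, 61.9 and 41.9 at T30 and 73.9, 59.1 and 31.7 at T60. The groups overlapped at T15 and T60, and the log2 changes of 0.18, 0.80 and 0.52 did not pass. In crz1 the changes were 0.26, 0.50 and 0.17 and none passed. In rim101 the T30 libraries, at 109.6 and 87.3 RPKM against 42.9 and 28.0 at T0, gave a log2 change of 1.47 (SE 0.50, limma adjusted p = 0.0382). This call was lost under both rescalings, with library type as a term and without any 1 of its 4 libraries. Both T30 libraries are of the higher-median kind.

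The PHO80 to PHO85 ratio within a library does not depend on the scaling of that library. In WT it was 1.30, 1.81 and 1.78 at T0, 2.61, 2.84 and 2.27 at T15, 2.70, 2.45 and 2.67 at T30 and 3.45, 3.66 and 3.86 at T60. The 3 T60 ratios lay above all earlier WT ratios and the 3 T0 ratios below all later ones. In crz1 the ratio went from 0.955, 1.54 and 1.64 at T0 to 3.07, 3.02 and 3.50 at T60, and in rim101 from 1.18 and 2.63 to 3.04 and 3.90. The crz1 T0 and T60 ratios did not overlap, nor did those of rim101, though 1 rim101 T0 ratio, at 2.63, lay between the T30 ratios of 2.67 and 2.60. These ratios were not tested.

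PHO2 (PAS_chr2-2_0043, chromosome 2, 2304583 to 2306598, plus strand), described in the file as a homeobox transcription factor, fell in rim101 and had no called change in WT or crz1. WT libraries were at 39.996, 8.23 and 26.8 RPKM at T0, 26.6, 18.5 and 33.2 at T15, 24.5, 20.4 and 27.4 at T30 and 22.0, 18.6 and 27.6 at T60. The lowest and highest WT values were both at T0, so WT T0 spans every later WT library. The WT log2 changes of 0.27, 0.19 and 0.10 did not pass. In crz1 all 12 values lay between 27.0 and 38.8 RPKM, with changes of -0.29, -0.18 and -0.30 that did not pass. The crz1 libraries of T15, at 27.0 to 34.4 RPKM, and of T60, at 29.0 to 32.7, were nonetheless all below those of T0, at 36.0 to 38.8. Those of T30 overlapped T0. In rim101, PHO2 was 39.2 and 20.1 RPKM at T0, 16.9 and 8.54 at T15, 9.98 and 3.44 at T30 and 7.71 and 5.62 at T60. Each later rim101 library was below both at T0. The rim101 log2 change was -1.16 at T15 (SE 0.50, limma adjusted p = 0.170), -2.06 at T30 (SE 0.50, limma adjusted p = 0.00651) and -1.94 at T60 (SE 0.50, limma adjusted p = 0.0250). The T30 call was lost without rim101 T0 replicate 1 or T30 replicate 2, and the T60 call without T0 replicate 1 or either T60 library and with quantile normalization (adjusted p = 0.0599).

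PHO86 (PAS_chr4_0570, chromosome 4, 1111329 to 1112306, plus strand) encodes a protein of the endoplasmic reticulum, which in S. cerevisiae is needed for Pho84 to leave that compartment. WT values were 34.9, 51.5 and 38.5 RPKM at T0, 43.0, 46.5 and 92.3 at T15, 101, 82.8 and 54.7 at T30 and 47.8, 92.0 and 41.3 at T60. The log2 changes in WT were 0.46, 0.89 and 0.45 and in crz1 0.48, 0.57 and 0.20, and none passed. In rim101 PHO86 went from 30.7 and 31.3 RPKM at T0 to 76.7 and 166 at T15 and 212 and 175 at T30, and was at 40.9 and 49.4 RPKM at T60. It rose in rim101 by 1.84 at T15 (SE 0.46, limma adjusted p = 0.0119) and 2.60 at T30 (SE 0.46, limma adjusted p = 0.000407), and the T60 change of 0.52 did not pass. Without the higher-median library rim101 T15 replicate 2 the T15 call was lost, as it was without T0 replicate 1. The T30 call held under both rescalings, at 1.84 and 1.82.

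PHO5 (PAS_chr2-1_0103, chromosome 2, 189096 to 190502, plus strand), described in the file as a repressible acid phosphatase carried to the cell surface, rose in all 3 strains, with the largest estimates in rim101. The WT libraries had 7.55, 19.1 and 17.8 RPKM at T0, 33.8, 40.1 and 54.9 at T15, 77.7, 72.2 and 62.3 at T30 and 36.9, 43.3 and 43.1 at T60. In crz1 it was 9.34, 22.3 and 16.9 RPKM at T0, 48.7, 48.8 and 37.1 at T15, 95.2, 58.6 and 63.2 at T30 and 47.8, 49.6 and 50.6 at T60. Every later library of these strains was above every T0 library of the same strain. The rim101 values were 10.6 and 14.4 RPKM at T0, 54.0 and 86.0 at T15, 365 and 300.4 at T30 and 109 and 133 at T60. At T30 and T60 both rim101 libraries lay above every WT and crz1 library at any time.

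Log2 changes of PHO5 in WT were 1.54 at T15, 2.27 at T30 (SE 0.30, limma adjusted p = 8.85e-06) and 1.50 at T60, all called. In crz1 they were 1.48, 2.14 and 1.63, all called. In rim101 they were 2.37 (SE 0.37, limma adjusted p = 0.000150), 4.63 (SE 0.37, limma adjusted p = 7.18e-09) and 3.19 (SE 0.37, limma adjusted p = 7.92e-06). The WT call at T60 was lost with quantile normalization, where the change was 0.66, and without the higher-median libraries (adjusted p = 0.0570).

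PHO8 (PAS_chr2-2_0084, chromosome 2, 2225270 to 2226847, minus strand), the alkaline phosphatase of the vacuole in S. cerevisiae, rose by a small amount in every strain at every time. It was in WT 24.7, 24.3 and 23.2 RPKM at T0, 35.3, 35.5 and 38.2 at T15, 52.5, 51.3 and 45.2 at T30 and 44.7, 41.8 and 41.2 at T60. No 2 of these 4 groups overlapped. In crz1 it went from 26.5, 22.7 and 22.8 RPKM to 49.8, 51.5 and 52.6 at T30, and in rim101 from 27.9 and 24.3 to 63.3 and 61.3. The rim101 log2 changes were 0.81, 1.23 and 0.76, those of crz1 0.70, 1.07 and 0.64 and those of WT 0.57, 1.02 and 0.80, and all 9 passed (limma adjusted p between 2.37e-05 and 0.0197). In rim101 the T15 call was lost without T0 replicate 2 or T15 replicate 2, and the T60 call without any 1 of the 4 libraries. Relative to the median of all genes, the rim101 values were 0.40, 0.37 and 0.63, those of crz1 0.46, 0.64 and 0.35 and those of WT 0.41, 0.39 and 0.15. After median-ratio scaling the call held in crz1 at T30 (0.69, limma adjusted p = 0.0102) and was lost in the other 8 comparisons. With quantile normalization all 9 calls were lost, and the WT change at T60 was 0.02.

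GDE1 (PAS_chr2-2_0314, chromosome 2, 1783905 to 1787780, plus strand), a glycerophosphocholine phosphodiesterase, was present at T15 and T30 and listed at 0 in all 8 libraries of T60. WT was listed at 0 in the 3 libraries of T0 and of T60, with 1.96, 3.37 and 6.89 RPKM at T15 and 5.18, 2.74 and 4.38 RPKM at T30. The crz1 libraries had 0.0357, 0 and 0.392 RPKM at T0, 9.59, 7.22 and 4.54 at T15 and 12.9, 5.36 and 7.52 at T30. In rim101 both T0 libraries were listed at 0, T15 had 2.15 and 10.8 RPKM and T30 had 14.4 and 8.17 RPKM. A single read was worth 0.0156 to 0.0521 RPKM for this gene, so the WT T15 and T30 values whose depth could be read stood for 68 to 171 reads. No test and no fold is given for these changes, since the libraries of T15 and T30 are the ones that brought GDE1 past the filter and the others were listed at 0. A listed 0 need not mean no transcript: 347 genes were listed at 0 in every library of 1 group with a mean above 10 RPKM in another.

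From T15 to T60, GDE1 went to a listed 0 in every strain, and limma called none of the other 9 genes, with 1, 0 and 3 of them at an unadjusted p under 0.05 in WT, crz1 and rim101. Between these times 16.1% of all genes were called in WT, 10.2% in crz1 and 5.11% in rim101, in either direction. Of the 4226 genes tested, 1393, 938 and 787 were at an unadjusted p under 0.05 in WT, crz1 and rim101. In rim101, PHO86 and PHO81 had log2 changes of -1.31 (limma adjusted p = 0.107) and -1.29 (limma adjusted p = 0.230) over this interval.

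VTC2 (PAS_chr2-1_0668, chromosome 2, 1272221 to 1274638, minus strand) and VTC4 (PAS_chr2-2_0420, chromosome 2, 1599987 to 1602101, minus strand) encode subunits of the vacuolar transporter chaperone complex. In S. cerevisiae Vtc4 holds the active site that makes polyphosphate, and Vtc2 is an accessory subunit. VTC2 in WT was 25.2, 28.8 and 30.9 RPKM at T0, 113, 114 and 147 at T15, 361, 224 and 191 at T30 and 161, 168 and 121 at T60. VTC4 in WT was 38.1, 52.8 and 55.1 RPKM at T0, 143, 154 and 192 at T15, 444, 269 and 219 at T30 and 249, 264 and 175 at T60. For both genes T0 stood apart from all later times, and T30 replicate 1, a higher-median library, was the highest.

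The T30 values of VTC2 were 441, 224 and 256 RPKM in crz1, from 36.7, 46.9 and 34.7 at T0, and 429 and 306 RPKM in rim101, from 23.5 and 27.1. Those of VTC4 were 509.9, 246 and 283 RPKM in crz1, from 52.8, 72.4 and 57.8, and 485 and 389 RPKM in rim101, from 41.9 and 65.5. Both genes were the 2 most abundant of the 10 at T30 in every strain. VTC2 rose by 3.10 at T30 in WT (SE 0.30, limma adjusted p = 5.79e-08), 2.88 in crz1 (SE 0.30, limma adjusted p = 1.56e-07) and 3.79 in rim101 (SE 0.36, limma adjusted p = 9.69e-08). VTC4 rose by 2.60, 2.42 and 3.03 at the same time, with limma adjusted p = 2.18e-06, 5.20e-06 and 7.30e-06. At T15 and T60 both genes were called in each strain, with changes from 1.94 to 2.42 for VTC2 and from 1.68 to 2.21 for VTC4. Among these the rim101 calls of VTC4 were lost without T0 replicate 1 or T15 replicate 2 at T15, and without T0 replicate 1 or either T60 library at T60.

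**Figure D2:**
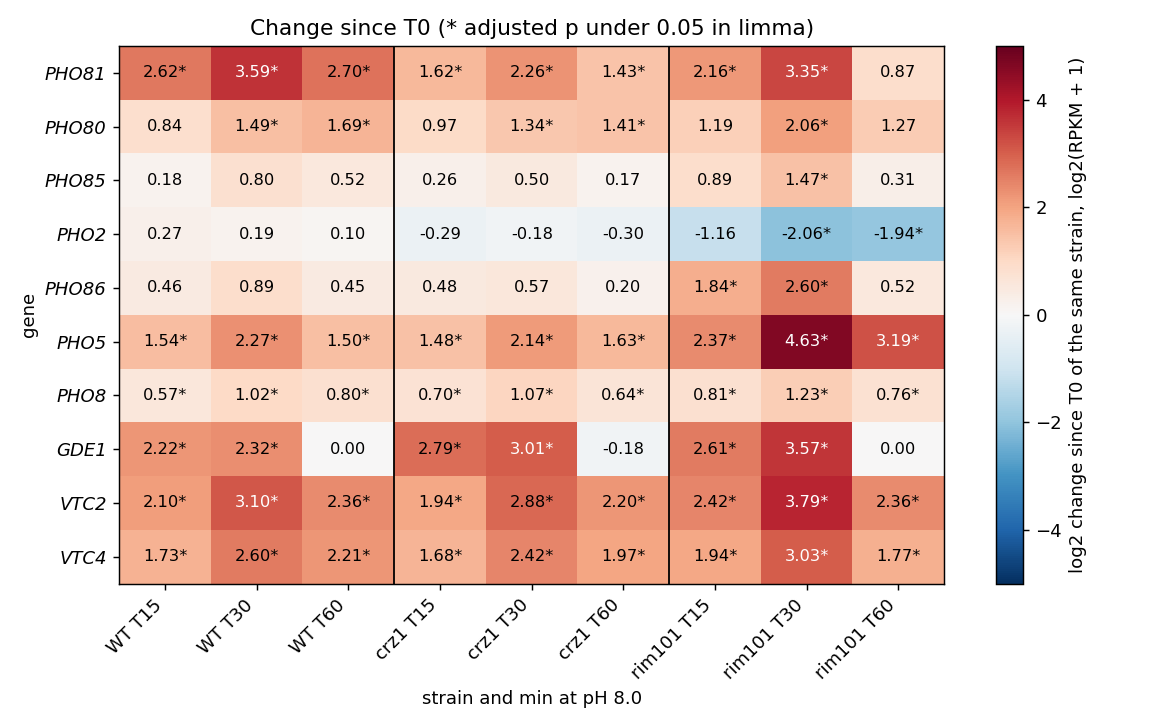
Heat map of the log2 change since T0 of the same strain for the 10 genes, at T15, T30 and T60 in WT, crz1 and rim101. Colours and printed values are limma estimates on the log2(RPKM + 1) scale, and an asterisk marks an adjusted p under 0.05. The marks of GDE1 are not read as results, since its T15 and T30 libraries brought it past the filter. VTC2 and VTC4 lay above 0 throughout, and PHO2 lay below 0 in rim101, at -2.06 at T30, and near 0 in WT, at 0.19.

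The VTC2 to VTC4 ratio within libraries was highest at T30 in all 3 strains. In WT it was 0.662, 0.545 and 0.561 at T0, 0.792, 0.741 and 0.769 at T15, 0.813, 0.832 and 0.876 at T30 and 0.648, 0.638 and 0.696 at T60. The WT T30 ratios lay above those of every other time, and T60 overlapped T0. In crz1 the T30 ratios of 0.865, 0.912 and 0.904 were again above all others of the strain, and the T60 ratios of 0.722, 0.786 and 0.781 stayed above those of T0, at 0.695, 0.648 and 0.600. In rim101 the ratio was 0.562 and 0.414 at T0, 0.718 and 0.659 at T15, 0.883 and 0.788 at T30 and 0.705 and 0.777 at T60.

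The crz1 mutant did not differ detectably from WT in any of the 9 genes other than GDE1. At T0, T15, T30 and T60, 0 of these 9 were called by limma, beside 0.071%, 0.568%, 0.426% and 0.26% of all genes. At an unadjusted p under 0.05 there were 1, 0, 0 and 0 of the 9, against 308, 137, 114 and 117 of the 4226 genes tested. The largest difference was PHO81 at T0, higher in crz1 by 1.58 (95% confidence interval 0.61 to 2.55, limma adjusted p = 0.648), with the 3 crz1 libraries above the 3 of WT. At T30 the difference of VTC2 was 0.24 (interval -0.38 to 0.85), of PHO5 0.00 (interval -0.63 to 0.63) and of PHO8 0.05 (interval -0.27 to 0.37). For GDE1 at T30 the crz1 libraries lay above those of WT. No difference is given for it, since its T15 and T30 libraries brought it past the filter. PHO2 was also higher in every crz1 library than in every WT library at T30 and T60, by 0.45 and 0.41 (limma adjusted p = 1.00 and 0.956). The crz1 libraries also lay above those of WT for VTC2 at T0, by 0.46, and for PHO5 at T60, by 0.26, and below them for PHO8 at T60, by -0.16. The median difference of all tested genes was 0.18 at T0, 0.04 at T30 and -0.14 at T60.

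The change since T0 was compared between crz1 and WT in the same fit. Of the 9 genes other than GDE1, 0 were called at T15, T30 and T60, beside 0%, 0.0237% and 0% of all genes. At an unadjusted p under 0.05 there were 0 of the 9 each time, against 77, 75 and 84 of the 4226 genes tested. PHO81 had the largest differences, at -1.34 at T30 (interval -2.71 to 0.04) and -1.27 at T60 (interval -2.64 to 0.10). Its crz1 T0 level, above WT, enters each of these. Among the remaining genes without GDE1, the difference largest in size was that of PHO2 at T15, at -0.56.

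Against WT, rim101 differed in PHO5 and PHO2. Of the 9 genes other than GDE1, 0 were called at T0 and T15, beside 0.118% and 1.06% of all genes. At an unadjusted p under 0.05 there were 0 and 2 of the 9, against 167 and 272 of the 4226 genes tested. The 2 at T15 were PHO2 at -1.02 and PHO86 at 0.98. At T30, 2 of the 9 were called beside 1.51% of all genes, and at T60, 1 of the 9 beside 1.66%. PHO5 was higher in rim101 by 2.22 at T30 (SE 0.34, 95% confidence interval 1.51 to 2.92, limma adjusted p = 0.000167) and by 1.54 at T60 (SE 0.34, interval 0.83 to 2.24, limma adjusted p = 0.0128). The T30 call held without any 1 of the 5 libraries, with adjusted p up to 0.0127. The T60 call was lost without WT T60 replicate 1 (adjusted p = 0.0631), rim101 T60 replicate 1 (0.0871) or rim101 T60 replicate 2 (0.271), and without the higher-median libraries (0.409).

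PHO2 was lower in rim101 than in WT by -1.84 at T30 (SE 0.46, interval -2.78 to -0.89, limma adjusted p = 0.0364) and by -1.63 at T60 (SE 0.46, limma adjusted p = 0.0809), the second not past the threshold. In both cases each rim101 library was below each WT library. The T30 call was lost without any 1 of the 3 WT libraries or without rim101 T30 replicate 2, where the difference was -1.18 (adjusted p = 0.592). With library type as a term it was -1.64 at T30 (adjusted p = 0.0859) and -1.82 at T60 (adjusted p = 0.0373). PHO86 at T30 was higher in both rim101 libraries than in all of WT, by 1.31 (limma adjusted p = 0.173), and PHO81 at T60 was lower by -1.36 (limma adjusted p = 0.282). The groups were also apart for PHO86 at T0, lower in rim101 by -0.40, and for PHO8 at T15 and T30, higher by 0.34 and 0.32, none of them called. The median difference of all tested genes was 0.15 at T0, 0.36 at T15 and 0.41 at T30. GDE1 at T30 was also higher in both rim101 libraries than in all of WT, and no difference is given for it. The share of all genes whose groups stood apart was not computed. Both rim101 libraries of T30 are of the higher-median kind. For PHO5, higher-median libraries exceeded the others by a median of 0.19 on the log2 scale over the 6 mixed groups, and for PHO2 the median was -0.29.

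**Figure D3:**
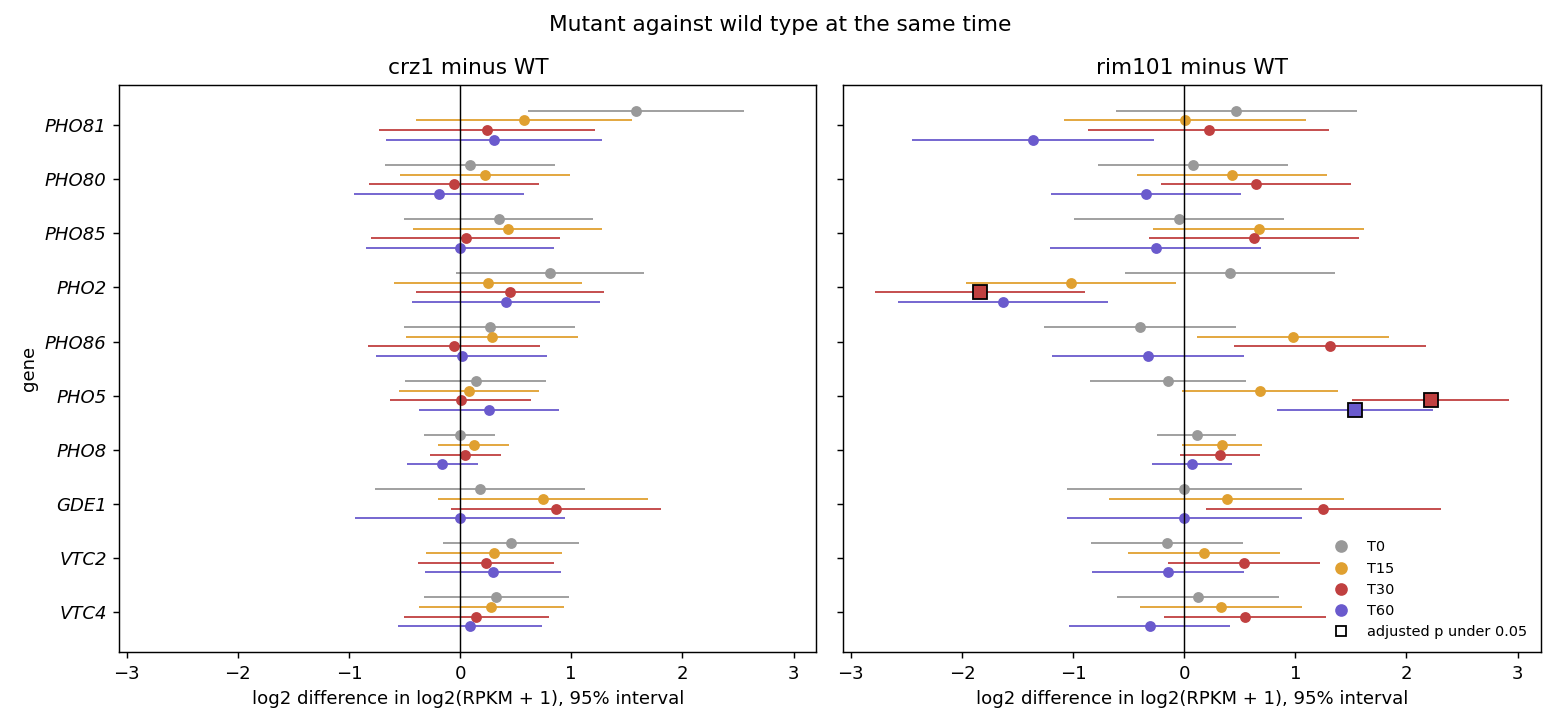
Difference of crz1 (left) and rim101 (right) from WT for the 10 genes at T0, T15, T30 and T60, as log2 differences on the log2(RPKM + 1) scale with 95% confidence intervals from limma. Squares mark an adjusted p under 0.05. The points and intervals of GDE1 are not read as results, since its T15 and T30 libraries brought it past the filter. PHO5 at T30 in rim101 lay at 2.22 and PHO2 at -1.84, and in crz1 the value farthest from 0 was PHO81 at T0, at 1.58.

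The difference in response is the rim101 change since T0 less that of WT. At T15, T30 and T60 it was called for 0, 1 and 0 of the 9 genes other than GDE1, beside 0.45%, 0.781% and 0.568% of all genes. The 1 gene was PHO5 at T30, at 2.36 (SE 0.48, 95% confidence interval 1.36 to 3.36, limma adjusted p = 0.0113). It was lost without rim101 T0 replicate 1 (adjusted p = 0.0982) or rim101 T30 replicate 1 (adjusted p = 0.0927). At T60 the PHO5 difference was 1.68 (interval 0.68 to 2.68, limma adjusted p = 0.226). PHO2 was at -2.24 at T30 (interval -3.58 to -0.91, limma adjusted p = 0.187), and was called without WT T0 replicate 1, at -2.70 (adjusted p = 0.0317). Neither PHO86 nor PHO81 passed, with PHO86 at 1.71 at T30 (limma adjusted p = 0.491) and PHO81 at -1.83 at T60 (limma adjusted p = 0.578). For VTC2 and VTC4 the T30 differences were 0.69 (interval -0.28 to 1.66) and 0.43 (interval -0.60 to 1.45).

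The PHO5 to VTC4 ratio within a library, looked at because PHO5 differed in rim101, ran from 0.148 to 0.362 over all 24 WT and crz1 libraries. In rim101 it was 0.254 and 0.220 at T0, 0.367 and 0.306 at T15, 0.751 and 0.773 at T30 and 0.614 and 0.721 at T60. The 4 rim101 libraries of T30 and T60 thus lay above every WT and crz1 library. In rim101 the PHO2 to PHO85 ratio, chosen in the same way, went from 0.914 and 0.716 at T0 to 0.0910 and 0.0394 at T30 and 0.161 and 0.144 at T60. In WT it ranged from 0.202 to 0.991 and in crz1 from 0.298 to 1.10, so these 4 rim101 libraries were below all libraries of the other strains.

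**Figure D4:**
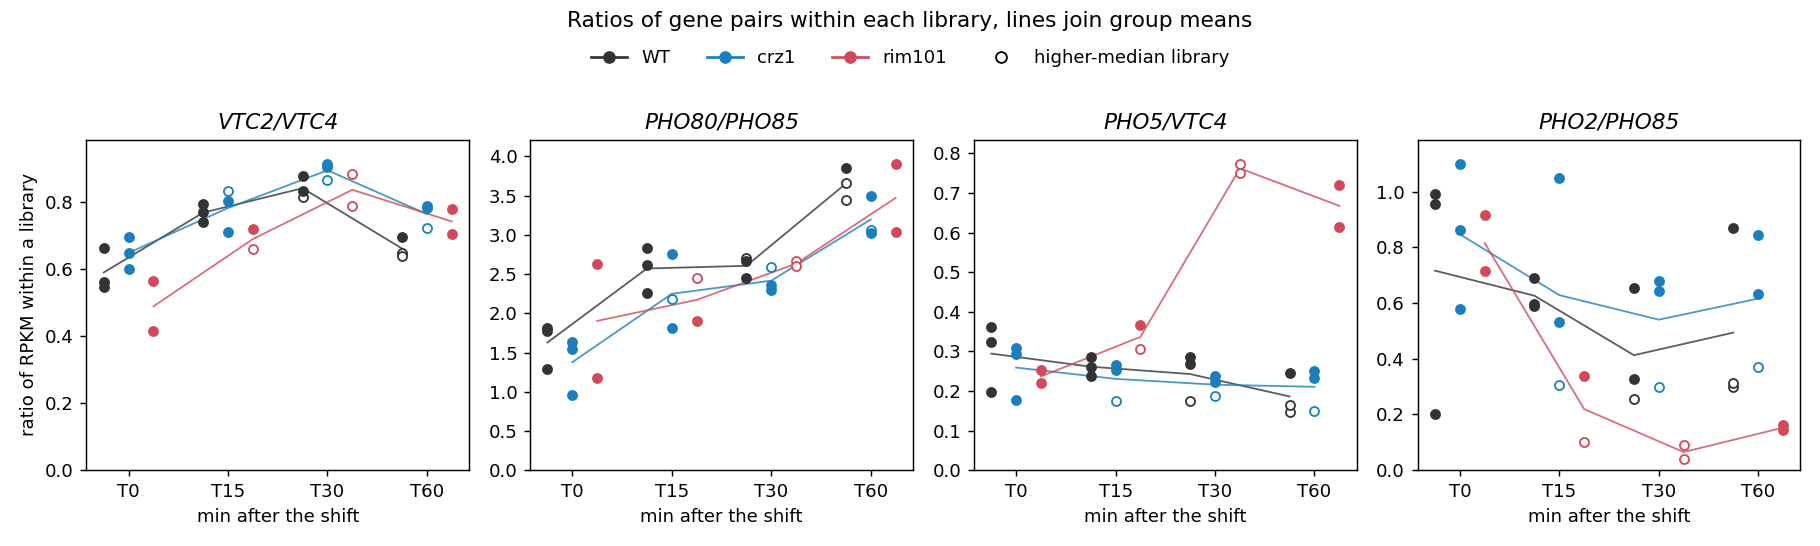
Ratios of RPKM within each library (vertical axes, no unit) by time after resuspension in min (horizontal axes), with 1 point per library of WT, crz1 and rim101 and lines through group means. Open points are higher-median libraries. PHO5 over VTC4 lay between 0.148 and 0.362 in WT and crz1 and reached 0.751 and 0.773 in rim101 at T30.

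The order of the 10 genes by RPKM, a unit already divided by length, changed with the shift. At T0 PHO80 and VTC4 were the highest in each strain, at 58.6 ± 13.0 and 48.6 ± 9.22 RPKM in WT (SD, n = 3), and PHO81 and GDE1 the lowest. In the order PHO80, VTC4, PHO86, PHO85, VTC2, PHO2 and PHO8, the range of each gene overlapped that of its neighbour in WT at T0. At T30 VTC4 led with 311 ± 118 RPKM and VTC2 followed with 259 ± 89.9 RPKM in WT, ranges that overlapped, and PHO2 was the ninth with 24.1 ± 3.54 RPKM (SD, n = 3). In rim101 at T30, PHO5 was the third with 333 ± 45.4 RPKM (SD, n = 2), its range apart from that of PHO80 below it and overlapping VTC2 above it. In WT at T30 it was the fifth with 70.7 ± 7.77 RPKM (SD, n = 3). PHO2 was last in rim101 at T30 with 6.71 ± 4.62 RPKM (SD, n = 2).

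Across the 12 group means of log2(RPKM + 1), which share time points and the scaling of the libraries, VTC2 and VTC4 had a Pearson correlation of 1.00, and 0.99 after median-ratio scaling. PHO85 and PHO86 had 0.95 and 0.92, PHO80 and VTC4 0.97 and 0.94, and PHO81 and VTC2 0.93 and 0.90. PHO2 had a negative correlation with each of the other 9 genes, from -0.03 with PHO81 to -0.72 with PHO5. Among 2294 other named genes with a mean of at least 10 RPKM, the most like VTC4 was CTF8 (r = 0.99, and 0.99 after median-ratio scaling), followed by NPC2 (0.98 and 0.85) and PRX1-1 (0.98 and 0.39). CTF8 was also first for VTC2. For PHO80 the first was PTC7 (0.99 and 0.98), for PHO2 GAP1 (0.92 and 0.93) and for PHO5 ALK2 (0.94 and 0.82). For PHO81 it was NEW1 (0.96 and 0.85), for PHO85 SLX1 and HTS1 (0.98 and 0.60), overlapping genes listed with equal values, for PHO86 FMP32 (0.95 and 0.90), for PHO8 AHP1 (0.98 and 0.92) and for GDE1 MGR2 (0.96 and 0.68). With 12 points these are descriptions.

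The other phosphate genes, matched by name from a fixed list, moved in both directions. Of the 14 other phosphate genes of the list that were found, the WT counts by time were 4, 4 and 4 risen and 2, 2 and 3 fallen, where 13.4%, 24.1% and 26.9% of all genes rose and 5.18%, 4.07% and 4.61% fell. In crz1, 4, 5 and 3 rose, beside 14.6%, 16.8% and 12.4% of all genes, and 2, 2 and 2 fell, beside 8.33%, 5.28% and 5.4%. In rim101, 2, 3 and 1 rose, beside 5.47%, 23.5% and 2.72% of all genes, and 0, 1 and 1 fell, beside 2.7%, 4.64% and 1.14%. Of the 5 PHO85 cyclin genes among them, 3 were called in WT at 1 or more times. CLG1 rose by 0.58, 0.91 and 0.97 at T15, T30 and T60, PCL2 by 1.37 and 1.40 at T30 and T60, and PCL5 by 1.31 at T60. The other 2 were not called in WT. The median change of all tested genes in WT was 0.17, 0.62 and 0.65 at the 3 times. The share of all genes called in WT at 1 or more times was not computed. PHO23 rose by 0.90 and 0.70 in WT at T15 and T30, and PHO13 fell by 0.63, 0.51 and 0.52 at the 3 times. The transporters PHO89, PHO84-1 and PHO84-2 also belong to this list and differed between rim101 and WT at all 3 times of pH 8.0. At T0, 1 of the 14 genes was already called lower in rim101 than in WT, beside 0.118% of all genes. PHO89 was then at 26.0 and 24.5 RPKM in rim101, against 68.5, 265 and 222 in WT. At T30 the sodium-phosphate symporter PHO89 was at 3448, 4134 and 4953 RPKM in WT and 21.6 and 11.3 in rim101, while PHO84-1, a copy of the proton-phosphate symporter gene, was at 22.3, 37.0 and 32.7 in WT and 3972 and 3364 in rim101. These transporter differences stand beside the higher PHO5 and lower PHO2 of rim101, and no link between them was tested.

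Both genes with the name of the factor that PHO80 and PHO85 act on were looked up after values had been seen. PHO4-2 was 6.40, 25.1 and 18.2 RPKM in WT at T0 and 249.8, 207 and 254 at T15. It rose in WT by 3.93, 4.12 and 3.66, in crz1 by 4.19, 4.41 and 3.71 and in rim101 by 4.27, 4.65 and 3.41, each called by limma. PHO4-1 moved less, by 0.71, 0.49 and 1.14 in WT, of which the changes at T15 and T60 were called. Whether either encodes a Pho4 with the role known in S. cerevisiae is not stated in the files.

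The authors' deposited table, with its own log2 fold changes over WT T0, listed 4, 5 and 3 of the 10 genes as higher in WT at T15, T30 and T60 at an FDR under 0.05, beside 4.74%, 3.58% and 1.86% of its 4581 genes. In crz1 the authors' deposited table listed 4, 5 and 3 as higher, beside 5.06%, 4.32% and 2.12%. In rim101 it listed 3, 7 and 3, beside 2.29%, 15.7% and 1.96%, and 1 gene as lower at T30, beside 16.0%. That gene was PHO2, with a log2 fold change of -2.70 and an FDR of 0.0008 in the authors' deposited table. The counts of higher genes at T15 and T30 include GDE1 in each strain, set against a WT T0 listed at 0. GDE1 is not read as a result there either. For PHO5 the authors' deposited table gave 1.75 in WT and 3.57 in rim101 at T30. It did not list PHO5 at T15 or T60 in WT (FDR 0.104 and 0.596) or crz1 (FDR 0.242 and 0.216). Nor did it list PHO5 in rim101 at T15 (FDR 0.166). PHO8 was listed in no group, with an FDR of 0.806 and 0.695 in WT at T15 and T30. PHO80 was listed in rim101 at T30 alone (FDR 0.000779). The limma calls of these genes are thus more numerous than those of the authors. At T0 it listed 0 of the 10 in crz1, beside 0.0655% of its genes in either direction, and 0 in rim101, beside 0.0437%. Since every column of that table is set against WT T0, a mutant value there holds both the strain and the time.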

How the data were processed

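Poly-A RNA of 32 libraries was sequenced from non-directional libraries, per the labels' protocols. Bowtie2 and edgeR are listed, without versions or roles, per the submitters' processing notes, and their settings and the build are not given in the sources used here. The authors deposited RPKM values for 5040 genes, and a table with log2 fold changes over WT T0, p-values and FDR for 4581 genes, which entered no test. All 5040 identifiers matched a RefSeq table of assembly ASM2700v1 with equal coordinates, and none of the 10 genes overlaps another gene. No 2 libraries were identical. The depth was read from the step between low RPKM values times gene length: in the 30 libraries read, 95.0% to 99.0% of the 200 lowest values lay within 0.1 of a whole read. By that depth PHO81 in WT at T0 rests on 42 to 275 reads and GDE1 on 271 reads or fewer in each library read.

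From the deposited RPKM, log2(RPKM + 1) was fitted with limma 3.58.1 in R 4.3.3 (limma-trend, two-sided, all 12 groups in 1 fit, 20 residual degrees of freedom). The 4226 genes with a mean of at least 1 RPKM were tested, with Benjamini-Hochberg adjustment within each comparison. The pseudocount understates changes of genes near 1 RPKM. Groups follow the labels. The protocol takes T15, T30 and T60 from each stressed culture, and nothing says which numbers share a culture or that replicates are separate cultures, so the p-values measure the spread between these samples. With 2 libraries per group, the rim101 tests draw on the spread of all groups. The fit was tested on simulated data. Levels and ratios were computed with Python 3.11.15, numpy 2.4.6 and pandas 2.3.3, and plots with matplotlib 3.10.9. Where the libraries of groups are said to lie apart, the share of all genes that did so was not computed, so this is a description.

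All 10 genes are named. Of 44 other phosphate gene names, 14 were found, and those called in WT could be named. Likeness was ranked by Pearson correlation over the 12 group means. The genes, lists and library types were chosen with earlier results of these data known. Alternatives were pseudocounts of 0.25 and 5, no filter, a minimum mean of 5 RPKM, median-ratio scaling, quantile normalization, a replicate block, the compared groups alone, library type (median above or below 40 RPKM) as a term, leaving out the 9 higher-median libraries and leaving out each library in turn. Promoters and protein sequences were not used here.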

Additional observations from a re-analysis of the deposited data

Results flagged for a closer look

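The change of PHO5, the repressible acid phosphatase gene, from T0 to T30 differed between rim101 and WT by a test of the difference itself. It was larger in rim101 by 2.36 on the log2(RPKM + 1) scale (SE 0.48, limma adjusted p = 0.0113). PHO5 went from 10.6 and 14.4 RPKM to 365 and 300.4 RPKM in rim101, and from 7.55, 19.1 and 17.8 to 77.7, 72.2 and 62.3 RPKM in WT. The direction held in all alternatives that gave a value, and the call was lost in 3 of 19, the compared groups alone and without rim101 T0 replicate 1 or rim101 T30 replicate 1. Groups here have 2 or 3 libraries, so no search for single far values was made.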

How the results depend on the processing

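Counts of genes in what follows are over all 10, GDE1 included. Single genes had 67 called changes and differences, 9 of them of GDE1. None of the 67 changed direction in any alternative, and 32 kept their call in every alternative that gave a value. The 9 calls of GDE1 rest on the libraries that brought it past the filter, so they are no sign of stability. With a minimum mean of 5 RPKM, where GDE1 was not tested, the other 58 kept their direction and call. The direction and the call held for all 67 with a pseudocount of 0.25, without the filter and with the replicate block. Fits on the compared groups alone ended 28 calls, quantile normalization 12, median-ratio scaling 9, the library type term 2 and a pseudocount of 5 ended 1. Without the higher-median libraries 7 of 54 calls ended, and leaving out 1 library at a time ended 49 of 357. For most the cause was not tested, but the fits on the compared groups have fewer libraries behind the spread.

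Among the counts of called genes, the compared groups alone gave 3 at T15 and 2 at T60 in WT, 0 at T15 and 1 at T60 in rim101, and 0 from T15 to T60 in rim101. They gave 1 for rim101 against WT at T30, 0 at T60, and 0 for the difference in response at T30. Without the higher-median libraries the count was 4 for rim101 at T15 and 0 for rim101 against WT at T60, and rim101 at T30 gave no value because both of its libraries are of that kind. With a minimum mean of 5 RPKM, GDE1 was not tested and the T15 to T60 count was 0 in all 3 strains. Rescaling by median ratios or by quantiles gave 2 for rim101 from T15 to T60, and by quantiles 1 for the rim101 difference in response at T60. A pseudocount of 5 and the library type term each gave 1 for rim101 against WT at T30, and the term gave 2 at T60.

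Same-numbered libraries of a strain had correlations of their deviations from the group means between -0.53 and 0.88, with a median of 0.24, over 0.1 in 33 of 48 pairs, against a median of -0.15 and 25 of 84 pairs for different numbers. Not every pair was over 0.1, so the numbers were not taken to pair the libraries, though 22 of 32 libraries correlated best with their own number, a hint from the data. With the replicate block the count was 2 for WT from T15 to T60, 2 for rim101 against WT at T60, 2 for the rim101 difference in response at T30 and 1 at T60. The genes gained were PHO80 in the first and PHO2 in the other 3, and the block also called PHO86 in WT at T30, PHO80 in crz1 at T15, and PHO80 and PHO2 in rim101 at T15.

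Leaving out 1 library at a time gave 6 to 6, 7 to 8 and 6 to 6 called genes at T15, T30 and T60 in WT, 5 to 7, 6 to 7 and 4 to 6 in crz1, and 2 to 8, 7 to 9 and 2 to 4 in rim101. From T15 to T60 the ranges were 1 to 2 in WT, 1 to 1 in crz1 and 0 to 2 in rim101. For crz1 against WT and its differences in response they were 0 to 0. For rim101 against WT they were 0 to 0 at T0 and T15, 1 to 2 at T30 and 0 to 1 at T60, and for its differences in response 0 to 0, 0 to 2 and 0 to 1. The rim101 T15 count of 2 came without T15 replicate 2, and that of 4 without T0 replicate 1. At T60 the rim101 count of 2 came without T0 replicate 1 or either T60 library. A group left with 1 library was assumed to vary like the others.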
